A study of Homo sapiens with 20 samples.

Results

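The change of the response of EVI1-expressing myeloid cells between 24 and 48 h after tet withdrawal was read from 8 of 20 Affymetrix HG-U133 Plus 2.0 arrays. The 8 arrays are those of clones E10 and E14, cultured with and without tetracycline (tet) and harvested at 24 and 48 h, with 1 array per clone, time and culture condition. Both are U937T_EVI1-HA clones of the human myeloid line U937, which has a monocytic phenotype. Each carries an HA-tagged human EVI1 cDNA that tet represses, and each is a single clone. Cultures with tet were washed and resuspended like those without. Another 8 arrays of these clones, at 6 and 12 h, and 4 of the control lines at 48 h entered the same fit and served for the spread. The control lines are U937T_vec clone P2, which carries the empty vector, and parental U937T, each with and without tet. All lines grew in puromycin, and E10, E14 and P2 in hygromycin as well. The control lines have no arrays at 24 h, so a change that tet withdrawal brings about between these times and one that EVI1 brings about cannot be told apart. E10 and E14 were treated as replicates of each other (n = 2), with constant differences between lines taken out. The p-values rest on how far lines still differed from each other within conditions, over all times and with a part from the control lines. No culture of a clone was repeated, so variation between cultures of 1 clone was not measured.

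EVI1, encoded by the MECOM locus, is a zinc finger transcription factor that is overexpressed in subsets of myeloid leukemia and that can both repress and activate genes. In a cell line in which such a factor is switched on, early changes of mRNA levels may be followed by others that take longer, since mRNAs decay at different rates and regulated factors act on further genes. U937 cells resemble immature monocytes. They hold the proteases of primary granules, which are made by promyelocytes, and can be driven to express genes of mature monocytes. For each gene the response at a given time is the log2 level without tet minus that with tet, and the change of response is the response at 48 h minus that at 24 h. It is a difference of differences on the log2 scale. A change of 1 therefore stands for a response that shifted by 2-fold. A gene was called when its adjusted p from limma was below 0.05. On the arrays, a lower level cannot be assigned to fewer cells that express a gene or to less RNA per cell, as these cannot be told apart.

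EVI1 mRNA was induced on the arrays that this comparison rests on. The MECOM probe set with the higher signal read 7.26 with and 9.64 without tet in E10 and 7.34 and 9.60 in E14 at 24 h. At 48 h it read 7.13 and 10.51 in E10 and 7.16 and 9.98 in E14. Every culture without tet lay above every culture with tet. The response was 2.32 at 24 h and 3.10 at 48 h, and its change of 0.78 was not called (95% interval from 0.15 to 1.41, adjusted p = 0.18, standard error 0.29). The other MECOM probe set changed by -0.11. The log2 difference between 3′ and 5′ control probe sets, which grows as RNA degrades, was 1.52 and 1.40 on the E14 arrays at 24 h and lay between 0.59 and 0.84 on the other 6 arrays. Taken as the same difference of differences, it was 0.12 in E10 and 0.22 in E14. Counts are therefore also given without the E14 arrays at 12 and 24 h. Of 14 markers of myeloid cells 12 were measured, with mean levels between 9.79 and 10.58 on the 8 arrays. Markers of lymphoid (10 measured), erythroid and megakaryocytic (9), and epithelial and fibroblast cells (9) had mean levels between 5.36 and 5.90. Among these 28 only CD3E, a chain of the T cell receptor complex, was called (change 0.91), and the part of such cells in the results was not tested. Of the lymphoid, erythroid and epithelial markers 3, 0 and 1 had an unadjusted p under 0.05 in limma, and 4 of the 10 lymphoid ones were called higher at 48 h. Over all 17860 genes tested, 2985 had such a p, and 16% were called higher at 48 h.

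Between 24 and 48 h the response became higher for 369 genes and lower for 291 of 17860 genes tested, which is 2.07% and 1.63% of all. For 101 and 55 of them the shift was at least 2-fold. All 660 had the same sign in E10 and E14, which the calls nearly fix, since changes on which the clones disagree are seldom called. Over all genes, which are no independent replicates, changes in the clones had a Pearson correlation of 0.578 and a Spearman correlation of 0.502. They share no arrays, but were cultured and processed alike. The median change over all genes was -0.024 and its median standard error was 0.176. The response itself was called higher for 1423 genes (7.97%) and lower for 1636 (9.16%) at 24 h, and for 2854 (16%) and 2623 (14.7%) at 48 h. Without the E14 arrays at 12 and 24 h, where the 24 h response is that of E10, 56 changes were higher and 42 lower. With E14 or E10 alone, 9 and 10 were higher and 1 and 7 lower. In these fits each EVI1 group is 1 array, the 1 residual degree of freedom comes from the control lines P2 and U937T, and the clone is assumed to vary as they do, so calls kept or lost there say little about either clone. Of the 73 called genes named here by the rule for named genes, 8 were called without E10 and 11 without E14, and CD36, CD52, CFP, ITGAM, MS4A3 and S100A8 in both. In either clone alone all 660 changes kept their sign, which restates the shared sign above and is no further evidence.

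The genes fell into classes by the calls at both times. In 359 genes a response already called at 24 h grew, with 183 induced and 176 repressed. In 244 genes, 151 induced and 93 repressed, a response appeared, being called at 48 h but not at 24 h. In 40 genes a response at 24 h declined, and in 17 it reversed its sign. A response was taken as stalled where it was at least 2-fold and called at 24 h, and where the 95% interval of the change lay within 1.5-fold either way. This applied to 75 genes. Of 348 genes with a response of at least 2-fold called at 24 h, 74 grew, 75 stalled and 6 declined or reversed. The other 193 had no called change, but an interval too wide to call them stalled. In the growing class the median response went from 0.69 to 1.60 in induced and from -0.58 to -1.42 in repressed genes.

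**Figure D1:**
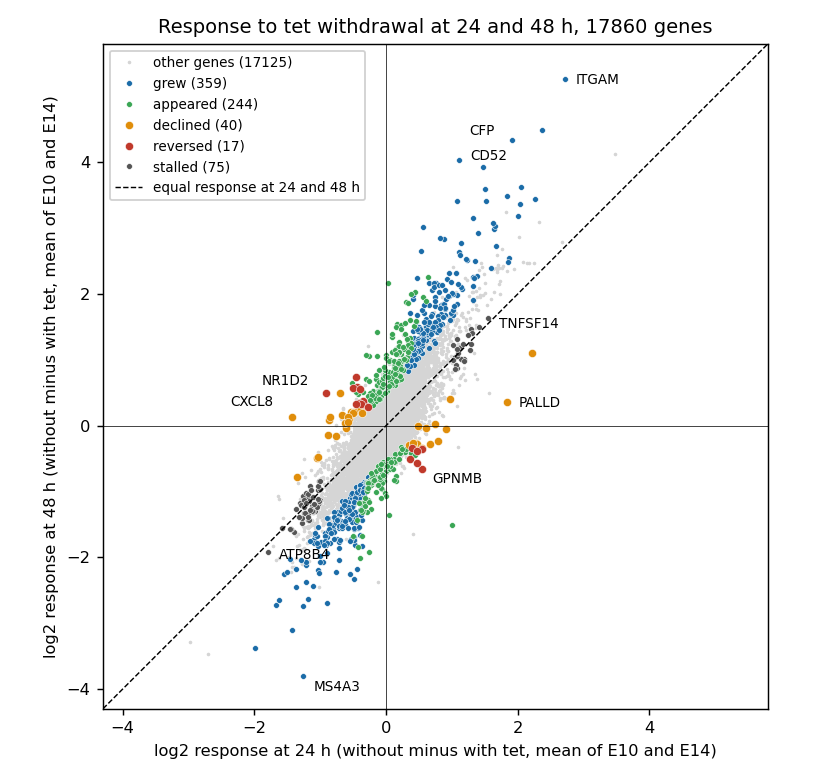
Log2 response (without minus with tet, mean of E10 and E14) at 24 h (x axis) and at 48 h (y axis) of 17860 genes, with 1 point per gene and colours for the 5 classes. Growing and appearing responses lie away from the dashed line of equality on the side of larger responses at 48 h, the 75 stalled ones on it, and the 17 reversed ones in the quadrants of opposite sign.

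Most called changes had their larger part in the cultures without tet. From 24 to 48 h, 1105 genes rose (6.19%) and 1574 fell (8.81%) in cultures without tet. In cultures with tet 3 rose (0.0168%) and 4 fell (0.0224%), while 2465 had an unadjusted p under 0.05 from limma, against 4694 without tet. The genes called with tet were EGR1, CFAP73 and LINC02806, which rose, and KIFC2, SLC25A25-AS1, UNKL and FOSL1, which fell. All but LINC02806 were named after their values had been seen. Of the 660 called changes, 622 had the larger part in the cultures without tet and 38 in those with tet. These comparisons share their arrays with the change of response and only divide it into its parts.

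GINS4, a subunit of the helicase complex that opens DNA for replication, and LINC02806, a long noncoding RNA, were among the 38. GINS4 read 7.98 with and 9.78 without tet in E10 at 24 h, and 10.09 and 8.94 at 48 h. In E14 it read 8.02 and 8.22 at 24 h, and 9.76 and 7.88 at 48 h. With tet both clones were lower at 24 h than at 48 h, by a difference of 1.92 that was not called, and the change of response was -2.52 with a standard error of 0.65 (adjusted p = 0.047). It was not called under 8 of 16 alternatives (adjusted p from 0.0034 to 0.14 over all 16), and its other probe sets changed by -0.38 to -0.76. LINC02806 rose by 1.06 in cultures with tet and changed by -0.55 in those without, for a change of response of -1.60 (standard error 0.23, adjusted p = 0.0015).

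**Figure D2:**
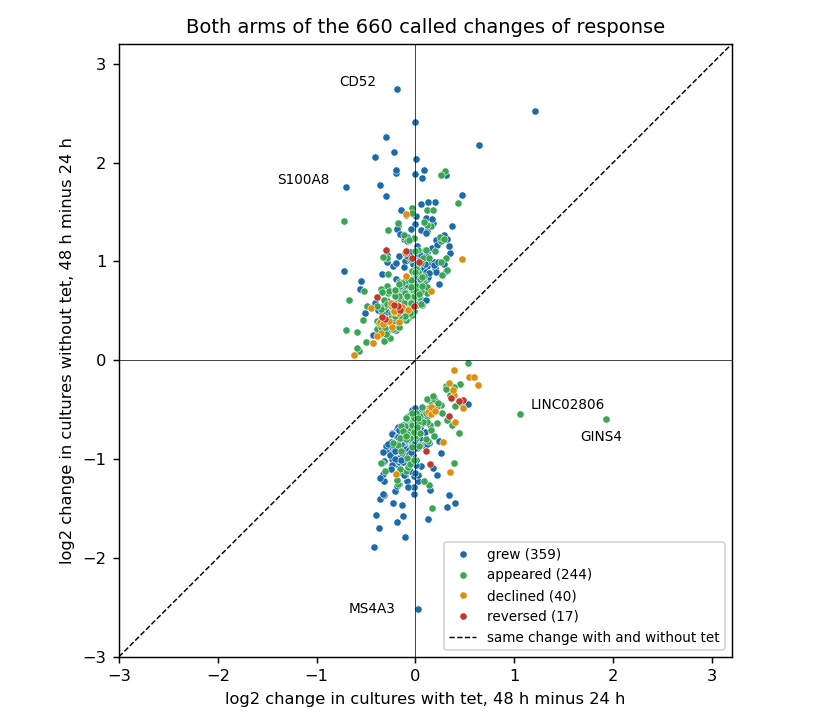
Log2 change from 24 to 48 h in cultures with tet (x axis) and without tet (y axis), mean of E10 and E14, for the 660 genes with a called change of response, coloured by class. The points spread along the y axis, with CD52 and MS4A3 near 0 on the x axis, whereas GINS4 and LINC02806 lie to the right.

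Genes of mature monocytes and macrophages were among the largest rises. CD52, which encodes a small lipid-anchored glycoprotein on leukocytes, read 5.33 with and 6.46 without tet in E10 and 5.21 and 6.30 in E14 at 24 h. At 48 h it read 5.20 and 9.07 in E10 and 4.95 and 9.17 in E14. The cultures with tet stayed alike, and both cultures without tet rose at 24 h and again at 48 h. The response went from 2.17-fold to 16.5-fold, a change of 2.93 (standard error 0.25, adjusted p = 4.9e-05). The other CD52 probe set had larger log2 responses, 2.92 at 24 h and 6.05 at 48 h, and a change of 3.12. CFP encodes properdin, which stabilizes the complement convertase. It read 5.50 and 7.44 in E10 and 5.74 and 7.65 in E14 at 24 h, and 5.57 and 9.92 in E10 and 5.67 and 9.99 in E14 at 48 h (with and without tet). The values of both clones lay close together, and the change of 2.42 had a standard error of 0.13 (adjusted p = 3.9e-07). TYROBP encodes the adaptor DAP12 of activating receptors. Without tet it read 7.93 in E10 and 8.13 in E14 at 24 h and 10.05 and 10.12 at 48 h, beside 6.60 and 6.51 and then 6.07 and 6.22 with tet. These arrays do not overlap between 24 and 48 h, and the change was 2.46 (standard error 0.22, adjusted p = 6.1e-05).

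S100A8, a subunit of the calcium-binding protein calprotectin, had a small response at 24 h (0.56) and one of 3.02 at 48 h. Its change of 2.46 included a difference of -0.71 in cultures with tet that was not called. ITGAM, the CD11b integrin chain, changed by 2.56, but its other probe set by -0.03. CD36, a scavenger receptor, changed by 2.33, and its other probe sets by 2.35, 2.83, 0.61 and -0.08. CHI3L1, a secreted glycoprotein of macrophages, changed by 2.13, and NCF1, a cytosolic subunit of the phagocyte NADPH oxidase, by 2.09. SERPINA1, which encodes the elastase inhibitor alpha-1 antitrypsin, changed by 2.12, and its other probe sets by 2.75 and -0.35. CLEC12B, an inhibitory lectin receptor whose response appeared at 48 h, changed by 2.13. Adjusted p-values of these 7 genes lay between 3.0e-05 and 0.0039. Among 37 genes measured that mark maturing monocytes and macrophages, 12 had a higher and 1 a lower change, with a median change of 0.40. At 24 h 14 of them were called higher and at 48 h 18, and the count of higher changes was 9 when the E14 arrays at 12 and 24 h were left out, and 5 with either clone alone. Of the 25 members with a mean of at least 5 over all arrays 13 were higher and 2 lower, with a median of 0.86. The lower one of the 37 was GPNMB, a glycoprotein of macrophage lysosomes, which reversed.

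**Figure D3:**
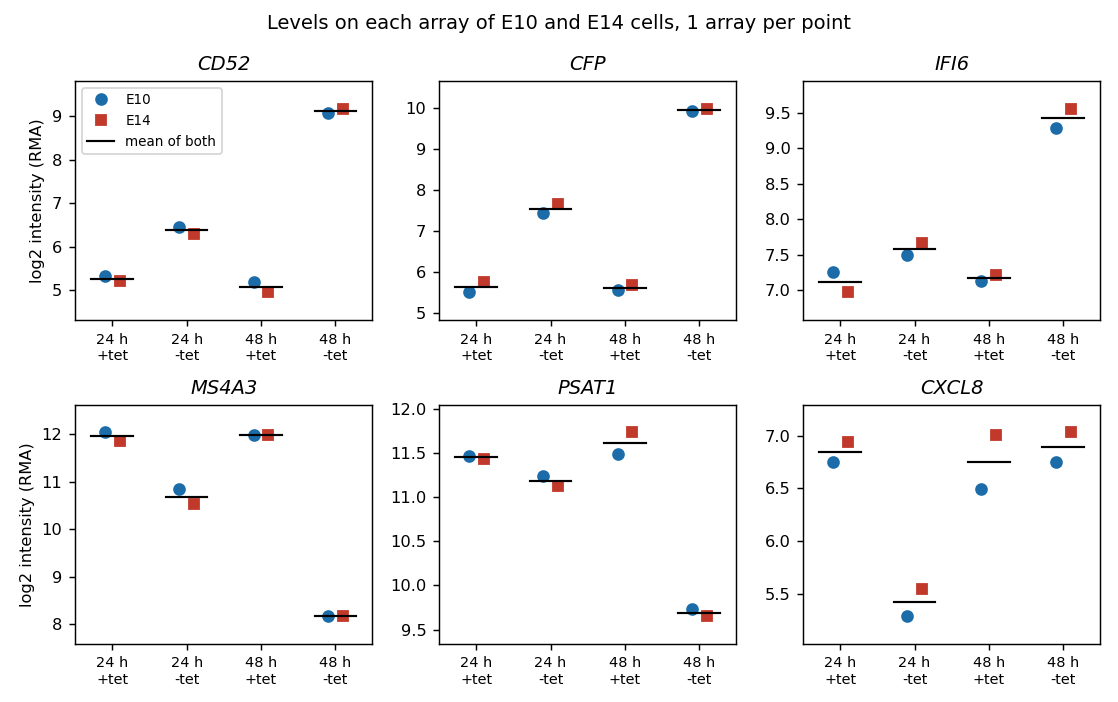
Log2 intensity (y axis, RMA) of 6 genes on the 8 arrays of E10 (circles) and E14 (squares) at 24 and 48 h with (+tet) and without (-tet) tet, with bars for the mean of both clones. CD52, CFP and IFI6 were highest and MS4A3 and PSAT1 lowest without tet at 48 h, and CXCL8 was lowest without tet at 24 h.

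MS4A3, whose product spans the membrane of myeloid precursor cells, had the largest fall. It read 12.04 with and 10.86 without tet in E10 and 11.87 and 10.53 in E14 at 24 h. At 48 h it read 11.98 and 8.18 in E10 and 11.98 and 8.17 in E14. Both clones moved alike, while the change in cultures with tet was 0.02. Repression went from 2.41-fold to 14-fold, a change of -2.54 (standard error 0.14, adjusted p = 3.9e-07), and the second probe set changed by -2.92. In 16 measured genes of primary granules and promyelocytes, 5 changes were lower and 1 was higher, with a median of -0.29. Leaving out the E14 arrays at 12 and 24 h, 4 were lower and 1 was higher. With either clone alone, 1 was lower. Lower were, beside MS4A3, the serine proteases PRTN3 (-1.73, standard error 0.17), ELANE (-1.33, standard error 0.16) and CTSG (-1.2), and CST7 (-1.43, standard error 0.20), an inhibitor of cysteine proteases. PRTN3 read 11.29 in E10 and 10.64 in E14 without tet at 24 h, and 9.60 and 9.12 at 48 h. The higher one was CFD, the complement protease factor D (1.14). CTSG and CFD were named after their values had been seen. KIT, the receptor for stem cell factor, had no called response at 24 h (0.04) and read 3.93 in E10 and 3.99 in E14 without tet at 48 h, beside 5.62 and 5.02 with tet. Its change was -1.40 (standard error 0.29, adjusted p = 0.015), at a mean level of 4.92, below the medians of the arrays. LMO2, an adaptor of transcription factors of blood progenitors, went the other way by 0.81 (adjusted p = 0.0041).

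Interferon-stimulated genes had the highest median change of the 21 gene lists plotted by list, but lay below the list of monocyte and macrophage maturation (0.66 against 0.86) when a mean of at least 5 over all arrays was required. Interferons act on receptors at the cell surface and turn on genes of antiviral defence, many of which carry interferon-stimulated response elements in their promoters. Of 37 measured members 17 had a higher change and none a lower one, with a median of 0.55 against -0.02 over all genes. The median response was 0.38 at 24 h, when 20 were called higher and 1 lower, and 1.07 at 48 h, when 29 were called higher and 1 lower. It was -0.04 at 6 h and 0.06 at 12 h. Of the 17 responses 9 grew and 8 appeared. The cultures with tet had a median change of 0.00 over the list, and those without tet of 0.61. Without the E14 arrays at 12 and 24 h, 4 of the 37 were called higher, with E10 alone 1 and with E14 alone none (limma, all with a median change of 0.51 or more).

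Promoters are shown for 3 called members that hold the core letters of this element, GAAANNGAA on either strand, in capitals. The sequences are from RefSeq (GRCh38.p14) and run from 250 bases before to 50 bases after the start. They are chr1:27672143-27672442 (minus strand) for IFI6, chr10:89392373-89392672 (plus strand) for IFIT1 and chr2:6865635-6865934 (plus strand) for 1 of the 2 listed starts of RSAD2.
IFI6: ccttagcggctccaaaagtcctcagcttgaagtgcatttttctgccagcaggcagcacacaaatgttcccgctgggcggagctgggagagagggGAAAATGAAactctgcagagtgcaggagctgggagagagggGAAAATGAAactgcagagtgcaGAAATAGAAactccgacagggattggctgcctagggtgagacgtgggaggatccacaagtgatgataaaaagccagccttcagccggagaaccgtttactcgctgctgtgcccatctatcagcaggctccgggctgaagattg
IFIT1: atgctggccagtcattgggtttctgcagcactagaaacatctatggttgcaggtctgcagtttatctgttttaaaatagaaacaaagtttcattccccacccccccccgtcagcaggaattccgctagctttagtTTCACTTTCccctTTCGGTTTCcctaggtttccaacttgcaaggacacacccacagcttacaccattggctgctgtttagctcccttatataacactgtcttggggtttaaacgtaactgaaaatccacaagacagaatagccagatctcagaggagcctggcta
RSAD2: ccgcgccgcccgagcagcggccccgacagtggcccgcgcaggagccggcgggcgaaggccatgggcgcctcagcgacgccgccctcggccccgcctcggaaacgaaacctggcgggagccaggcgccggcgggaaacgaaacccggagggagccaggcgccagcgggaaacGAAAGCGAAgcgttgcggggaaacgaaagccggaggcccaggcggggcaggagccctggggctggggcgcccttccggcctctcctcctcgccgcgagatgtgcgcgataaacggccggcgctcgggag
The letters were found in 23 of 30 measured list members with a listed promoter and in 8.83% of the 14003 tested genes with one (9.86% of all 27305 genes in the table, each counted over all its listed starts). Of the 13 list members with a called change and a listed promoter 9 held them (69.2%, against 76.7% of those measured). Among induced genes they were in 18.4% of those whose response grew and in 16.5% of those in which it appeared. In repressed genes these shares were 2.80% and 6.33%. A match describes the letters only.

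IFI6 encodes a mitochondrial protein that opposes apoptosis. It read 7.26 with and 7.5 without tet in E10 and 6.97 and 7.66 in E14 at 24 h, and 7.14 and 9.29 in E10 and 7.21 and 9.56 in E14 at 48 h. A small rise at 24 h was thus followed by one of 4.76-fold, with a change of 1.78 (standard error 0.18, adjusted p = 0.00013). IFIT1, which binds viral RNA, read 6.63 in E10 and 6.35 in E14 without tet at 24 h, and 8.76 and 8.58 at 48 h. Its change was 1.54 (standard error 0.21, adjusted p = 0.0011). RSAD2, which encodes the antiviral enzyme viperin, had responses at 24 h of 0.86 (E10) and -0.10 (E14), and at 48 h of 2.21 and 1.80. The clones thus differed in sign at 24 h and not at 48 h, and the change was 1.62 (standard error 0.26, adjusted p = 0.0032). OAS1, an activator of RNase L, also changed by 1.62 (standard error 0.32, adjusted p = 0.012). Factors of the pathway, named after their values had been seen, were IRF9 (1.36) and IRF7 (0.80). Among 21 pattern recognition receptors 6 changes were higher and none was lower, led by IFI16, a sensor of DNA (1.21), TLR9, a receptor for microbial DNA (1.19), and CLEC12A (1.03). No gene of this list was called without the E14 arrays at 12 and 24 h, with a median of 0.29 against 0.30, and the median of the 14 with a mean of at least 5 over all arrays was 0.47.

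Of the genes of amino acid supply, more were called lower at 48 h than at 24 h. The same held over all genes, with 9.16% called lower at 24 h and 14.7% at 48 h. When amino acids run short, the factor ATF4 induces enzymes that make amino acids, their transporters and tRNA synthetases, through elements that include the letters TTGCATCA. Of 32 measured genes of this response 15 had a lower and none a higher change, with a median of -0.47. At 24 h 11 were called lower, and at 48 h 21 lower and 2 higher. CTH, which makes cysteine from cystathionine, read 8.70 with and 8.37 without tet in E10 and 8.86 and 8.20 in E14 at 24 h, and 9.10 and 6.88 in E10 and 9.26 and 6.80 in E14 at 48 h. Levels without tet at 48 h lay below the rest in both clones, and the change was -1.84 (standard error 0.20, adjusted p = 0.00019). PSAT1, an enzyme of serine synthesis, read 11.24 in E10 and 11.13 in E14 without tet at 24 h, and 9.73 and 9.65 at 48 h. Its response at 24 h (-0.27) was not called, and its change was -1.66 (standard error 0.14, adjusted p = 4.9e-05). ASS1, which makes the precursor of arginine, changed by -1.71 (standard error 0.21), and ALDH1L2, a folate enzyme of mitochondria, by -1.80 (standard error 0.22), with -0.67 and -0.69 in its other probe sets. Further members called lower included ASNS (-1.03), SLC7A5 (-0.89), PHGDH (-0.67), SHMT2 (-0.65) and ATF4 (-0.53), named after their values had been seen.

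Of 17 aminoacyl-tRNA synthetase genes, whose products load tRNAs, 5 changes were lower and none was higher, with a median of -0.50. Those called lower at 24 h numbered 6, and at 48 h 17. WARS1 (-0.95, standard error 0.18) and VARS1 (-0.85, standard error 0.14) moved most. Without the E14 arrays at 12 and 24 h, 4 genes of amino acid supply and no synthetase were called, with medians of -0.52 and -0.48. The letters TTGCATCA were found in 5 of 14 synthetase genes with a promoter, in 4 of 26 genes of amino acid supply, and in 0.878% of tested genes (1.08% of the table). Of the 13 called amino acid genes with a promoter 1 held them, CHAC1, which encodes an enzyme that degrades glutathione and changed by -0.86. Its promoter, chr15:40953221-40953520 (plus strand, RefSeq, GRCh38.p14), shows the match in capitals.
CHAC1: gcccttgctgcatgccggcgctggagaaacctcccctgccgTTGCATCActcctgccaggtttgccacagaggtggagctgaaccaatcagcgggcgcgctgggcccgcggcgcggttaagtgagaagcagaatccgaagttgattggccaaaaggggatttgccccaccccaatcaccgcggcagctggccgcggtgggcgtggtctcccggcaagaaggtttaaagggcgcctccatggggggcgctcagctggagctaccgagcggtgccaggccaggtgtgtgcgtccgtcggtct

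Genes of ribosome biogenesis were already low at 24 h. Ribosome assembly in the nucleolus is a target of MYC, which binds E-boxes (CACGTG) with its partner MAX. Of 38 measured genes 36 were called lower at 24 h (median -0.98) and 38 at 48 h (median -1.43), none higher. The change was lower in 8 and higher in none, with a median of -0.40. POLR3G, a subunit of RNA polymerase III, read 6.66 in E10 and 6.61 in E14 without tet at 24 h, and 4.54 and 4.93 at 48 h. Its change was -1.48 (standard error 0.18, adjusted p = 0.00054), with 0.02 in its other probe set. MRTO4, a ribosome assembly factor, changed by -1.06 (standard error 0.14, adjusted p = 0.0011), the methyltransferase FBL by -0.84 and NOP16 by -0.80. The other probe sets of NOP16 changed by -0.59, -0.33 and 0.07. Without the E14 arrays at 12 and 24 h 2 of the 38 were called, and with the probe set of largest spread 2. MYC itself read 8.69 in E10 and 8.41 in E14 without tet at 24 h and 7.87 and 7.84 at 48 h, beside 11.14 to 11.37 with tet. Its response of -2.71 thus became -3.47, and the change of -0.76 was not called (adjusted p = 0.062, standard error 0.21). It was called under 5 of 16 alternatives, with adjusted p from 0.025 to 0.044.

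E-boxes were found in 16 of 31 measured ribosome biogenesis genes with a promoter, in 33.6% of repressed genes whose response grew, in 30.0% of repressed genes that stalled, and in 11.4% of tested genes (8.77% of the table). Among repressed genes whose response appeared at 48 h the share was 12.7%. The promoters of MRTO4, chr1:19251555-19251854 (plus strand), and of FBL, chr19:39846330-39846629 (minus strand), are given because both changes were called and hold the letters, shown in capitals (RefSeq, GRCh38.p14).
MRTO4: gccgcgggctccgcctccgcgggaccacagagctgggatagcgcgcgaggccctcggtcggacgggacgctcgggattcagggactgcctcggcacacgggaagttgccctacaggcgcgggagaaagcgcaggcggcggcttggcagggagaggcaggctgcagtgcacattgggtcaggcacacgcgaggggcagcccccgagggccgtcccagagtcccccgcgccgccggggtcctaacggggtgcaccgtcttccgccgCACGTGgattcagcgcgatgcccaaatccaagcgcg
FBL: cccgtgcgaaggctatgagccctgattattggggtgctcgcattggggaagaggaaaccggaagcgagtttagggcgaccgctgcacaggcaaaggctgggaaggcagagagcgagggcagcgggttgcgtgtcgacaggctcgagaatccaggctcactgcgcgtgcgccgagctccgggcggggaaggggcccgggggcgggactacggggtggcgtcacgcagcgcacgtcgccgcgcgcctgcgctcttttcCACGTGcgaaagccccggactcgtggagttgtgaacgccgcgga

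Replication genes, which license and copy DNA in S phase, had a median response of 0.03 at 24 h, with 2 of 32 called higher and none lower. At 48 h the median was -0.42, with 23 called lower and 2 higher. All 32 changes were below 0 (median -0.45) and 6 were called. ORC1, a subunit of the origin recognition complex, read 9.40 in E10 and 9.17 in E14 without tet at 24 h, and 8.73 and 8.43 at 48 h, while cultures with tet lay between 9.21 and 9.52. The change was -0.86 (standard error 0.17, adjusted p = 0.014). POLE2, a subunit of DNA polymerase epsilon, changed by -0.71, MCM4, part of the replicative helicase, by -0.69, and CDC45, its activator, by -0.65. Of 16 alternatives, MCM4 was not called under 9, POLE2 under 8 and CDC45 under 5. None of the 32 was called without the E14 arrays at 12 and 24 h, where the median was -0.47, and after median centring 2 were. Of 32 genes of mitosis none had a called change (limma, 0 with an unadjusted p under 0.05), with a median of -0.14, and 19 were called higher at 24 h and 13 at 48 h.

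Other lists are set beside the shares over all genes, 2.07% with a higher and 1.63% with a lower change. The heat shock and immediate early, lysosome, death receptor and BCL2 lists lay above the former. Among 17 heat shock and immediate early genes FOS (1.52), ZFP36, which destabilizes mRNAs (1.14), DUSP6, a phosphatase of ERK (1.00), and JUN (0.93, named after its value had been seen) were higher and the chaperonin HSPE1 (-0.95) was lower. FOS read 5.54 without tet in both clones at 24 h, and 7.0 in E10 and 7.24 in E14 at 48 h, with 4.69 to 5.09 on the 4 arrays with tet. KLF2, a factor of quiescence, changed by 1.48 (standard error 0.14, adjusted p = 9.7e-05) and its other probe set by -0.34. It was the only called gene of 22 in another list, that of cell cycle inhibitors and antiproliferative genes. In the death receptor list (20 measured) TNFRSF1B, a receptor for TNF, changed by 1.30 and TNFRSF10B, a receptor for TRAIL, by 0.86. The other probe sets of TNFRSF10B changed by 0.09, 0.27 and -0.05. In the BCL2 family (17 measured) BCL2A1, which opposes apoptosis, changed by 0.96 and BMF, which promotes it, by 0.94. GPI, the second enzyme of glycolysis, changed by -1.27 and was the only called gene of 26 in its list, a share near that over all genes. Of 32 lysosome and antigen presentation genes 5 were higher and none lower, led by CTSZ (0.97) and PSMB9 (0.91). The other probe set of CTSZ changed by -0.36. Leaving out the E14 arrays at 12 and 24 h, 1 gene of the heat shock and immediate early list was called, none of the death receptor list, 1 of the BCL2 family and none of the lysosome list. No gene of 18 of cholesterol synthesis was called (limma, 0 with an unadjusted p under 0.05).

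**Figure D4:**
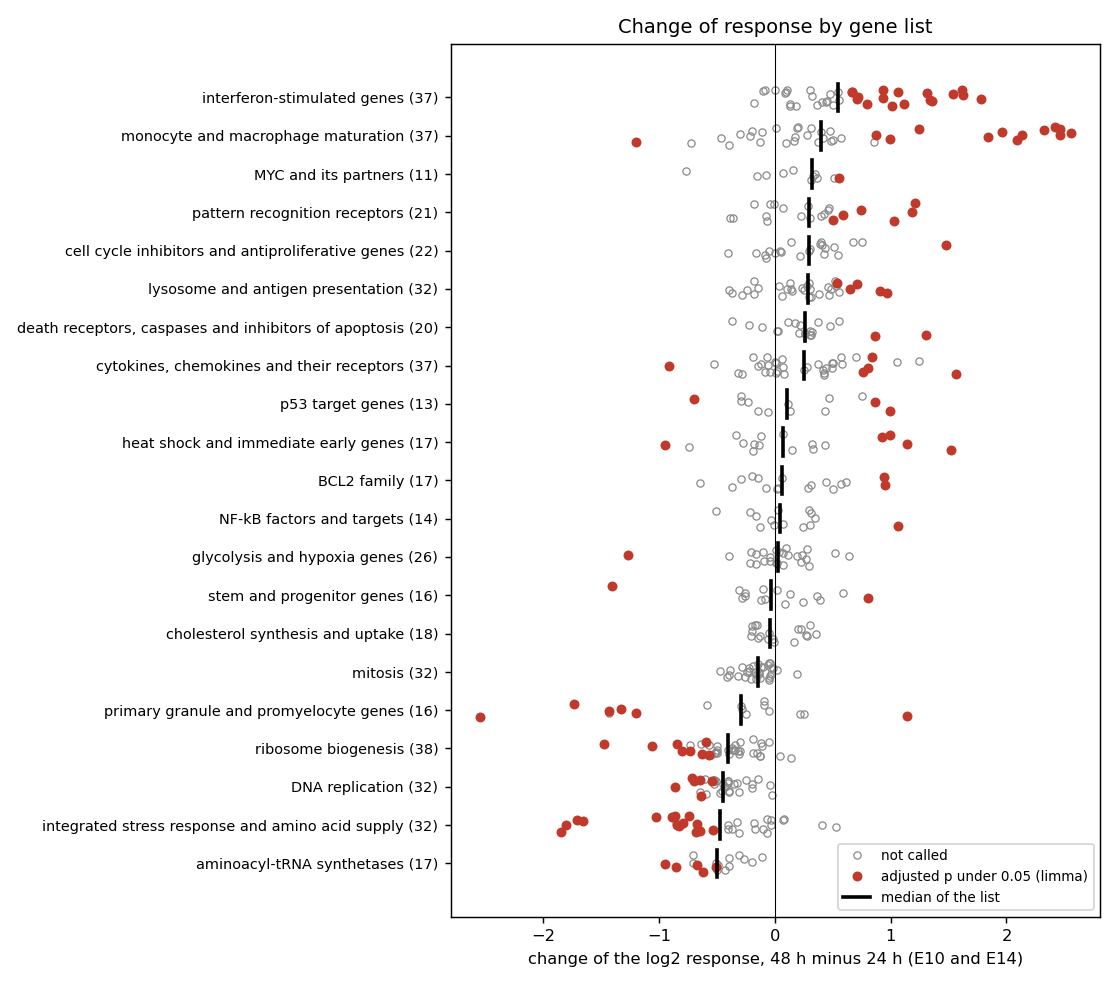
Change of the log2 response, 48 h minus 24 h (x axis), for 21 gene lists (in brackets, how many members were measured). Points are single genes, filled where the adjusted p from limma was below 0.05, and bars are medians, from 0.55 for interferon-stimulated genes to -0.50 for aminoacyl-tRNA synthetases.

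In 40 genes a response at 24 h was lost or lessened at 48 h. CXCL8, which encodes the neutrophil attractant interleukin 8, read 6.75 with and 5.29 without tet in E10 and 6.94 and 5.55 in E14 at 24 h. At 48 h it read 6.50 and 6.75 in E10 and 7.0 and 7.03 in E14. Of these 8 arrays the 2 without tet at 24 h were low. The response went from -1.43 to 0.14, and its change was 1.57 (standard error 0.21, adjusted p = 0.00095). Its response was 0.20 at 6 h and -1.17 at 12 h, and the second probe set changed by 0.30 (adjusted p = 0.76 where this probe set stands for the gene). PALLD, which encodes an actin-binding protein, read 7.29 in E10 and 6.99 in E14 without tet at 24 h, and 5.95 and 6.07 at 48 h, beside 5.25 to 5.68 with tet. The rise of 1.84 at 24 h was followed by a response of 0.37 that was not called, and the change was -1.48 (standard error 0.33, adjusted p = 0.025). Others, named after their values had been seen, were TRIM13, whose response went from -0.69 to 0.50, SCD, a fatty acid desaturase (-1.05 to -0.49), ZEB2, a transcriptional repressor (-1.03 to -0.48), and CTSK, the protease cathepsin K (0.92 to -0.05). The mean level of CTSK was 3.5, below the medians of the arrays. Its levels changed by 0.48 with tet and by -0.48 without, neither of them called. In the 16 induced genes the median response went from 0.57 to -0.25, and in the 24 repressed ones from -0.60 to 0.13. The larger part of the change was in the cultures without tet in 9 of the 16 and 20 of the 24.

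Responses of opposite sign at both times were called in 17 genes, 11 of them lower at 24 h and higher at 48 h. NR1D2, a nuclear receptor of the circadian clock, read 8.01 with and 7.19 without tet in E10 and 7.93 and 6.95 in E14 at 24 h. At 48 h it read 7.57 and 8.19 in E10 and 7.78 and 8.17 in E14. The order of the cultures with and without tet turned in both clones, and the change was 1.41 (standard error 0.20, adjusted p = 0.0013), with 1.25 in the other probe set. ADRB1, the beta-1 adrenergic receptor, responded by -0.46 in E10 and -0.47 in E14 at 24 h and by 0.72 and 0.77 at 48 h, a change of 1.2, with -0.14 and 0.18 in its other probe sets. DDX60L, a relative of an antiviral helicase, went from -0.51 to 0.57, with -0.31 in its other probe set. CLEC12A, an inhibitory lectin receptor of myeloid cells, went from -0.44 to 0.59, and PROK2, a secreted attractant of myeloid cells, from -0.40 to 0.56. In the opposite direction, GPNMB read 7.92 in E10 and 7.59 in E14 without tet at 24 h, beside 7.32 and 7.11 with tet, and 6.79 and 6.63 at 48 h, beside 7.35 and 7.37. Its response went from 0.54 to -0.65, a change of -1.2 (standard error 0.20, adjusted p = 0.0041). SMCO4 (0.47 to -0.56) and KITLG, the ligand of KIT (0.55 to -0.36), did likewise. GUCY1B2 (0.37 to -0.50) and SMIM2 (0.47 to -0.39) also turned, but had mean levels of 4.47 and 3.18, below the medians of the arrays, as had KITLG (4.57). In GUCY1B2 and SMIM2 the larger part of the change was in the cultures with tet, with 0.48 against -0.40 without tet in GUCY1B2 and 0.45 against -0.41 in SMIM2, and neither part with tet was called. Without the E14 arrays at 12 and 24 h, with E10 alone and with E14 alone, 0 of these 17 genes were in the class, which then held 5, 4 and 0 genes. DDX60L is no member of the interferon list, but its promoter, chr4:168480443-168480742 (minus strand, RefSeq, GRCh38.p14), holds the letters GAAANNGAA at 2 places, in capitals here.
DDX60L: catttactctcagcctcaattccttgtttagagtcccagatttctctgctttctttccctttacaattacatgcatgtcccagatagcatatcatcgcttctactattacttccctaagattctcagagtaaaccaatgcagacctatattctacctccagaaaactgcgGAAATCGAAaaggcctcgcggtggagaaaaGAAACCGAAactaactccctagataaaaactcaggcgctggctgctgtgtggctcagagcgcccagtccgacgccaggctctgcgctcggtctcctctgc

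**Figure D5:**
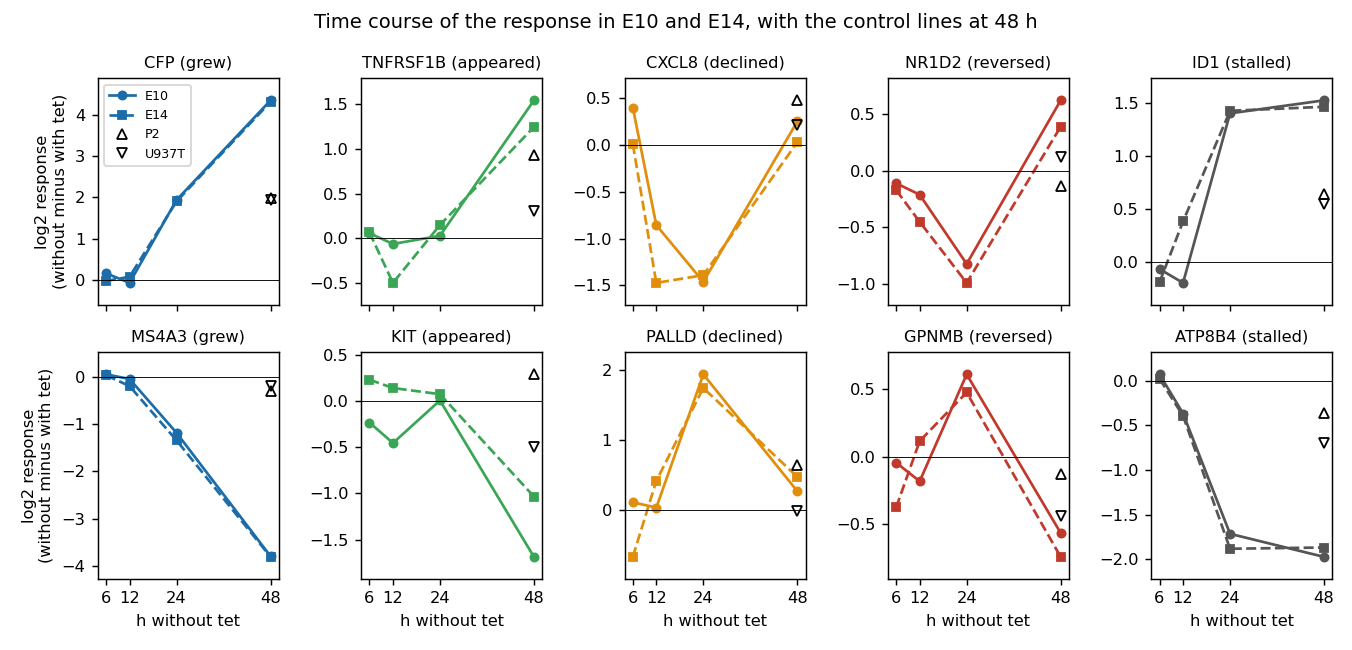
Log2 response (y axis, without minus with tet) at 6, 12, 24 and 48 h (x axis) in E10 (circles) and E14 (squares) for 2 genes of each class, with the control lines P2 (upward) and U937T (downward) at 48 h as open triangles. CFP and MS4A3 moved on after 24 h, TNFRSF1B and KIT moved between 24 and 48 h, CXCL8 and PALLD returned towards 0, NR1D2 and GPNMB crossed it, and ID1 and ATP8B4 stayed level.

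Among the stalled responses, repressed genes made up 52 of the 75, with a median response of -1.17 at 24 h and -1.21 at 48 h. ATP8B4, which encodes a lipid-flipping ATPase, read 9.75 with and 8.04 without tet in E10 and 9.68 and 7.80 in E14 at 24 h, and 9.69 and 7.72 in E10 and 9.85 and 7.99 in E14 at 48 h. It was low in all 4 cultures without tet at both times, with a change of -0.12 (95% interval from -0.55 to 0.30). ADAT2, a tRNA deaminase, POLR1B, the second largest subunit of RNA polymerase I, HK2, which starts glycolysis, RIOX2, a nucleolar hydroxylase, and TLCD1 had changes from -0.20 to 0.11. The level of HK2 differed between 24 and 48 h by -0.63 without tet, and by -0.42, which was not called, with tet. Further stalled genes, named after their values had been seen, included the transcription factor MYB (-1.23 and -1.21) and RRP12 of ribosome biogenesis (-1.22 and -1.17). Among 23 induced genes ID1, an inhibitor of differentiation factors, read 11.28 in E10 and 10.94 in E14 without tet at 24 h, and 11.44 and 11.15 at 48 h, with 9.51 to 9.91 with tet. Its response was 1.42 and then 1.5, and the interval of the change ran from -0.32 to 0.48. TNFSF14, the TNF family ligand LIGHT (1.56 and 1.64), TGFA, a ligand of the EGF receptor (1.30 and 1.40), KCNE3, a subunit of potassium channels (1.30 and 1.47), RCAN3 (1.28 and 1.24) and KANK2 (1.28 and 1.15) had like values. A stall is bounded by its interval and does not show that levels were equal. With limits of 2-fold, 192 genes met it, and none did with either clone alone.

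In the control lines at 48 h, 966 genes were called higher (5.41%) and 946 lower (5.30%). These lines carry no EVI1 cDNA. Of the 369 genes with a higher change 217 were among the former (58.8% of the changes and 22.5% of the control calls), and of the 291 with a lower change 185 were among the latter (63.6% and 19.6%). These comparisons share no arrays, but share one estimate of the spread. Opposite calls were made for 4 and 4 genes. Where responses grew, 159 of 183 induced and 157 of 176 repressed genes were called the same way in the control lines. Where they appeared, 57 of 151 and 28 of 93 were. Where they stalled, 19 of 23 induced and 49 of 52 repressed genes were, and where they declined, 3 of 16 and 4 of 24. Of the 17 reversed genes 1 was called in its direction at 24 h and 1 in the opposite one. The medians of the control lines were 0.74 and -0.53 in the growing, and 0.32 and -0.29 in the appearing class. In the stalled class they were 0.74 and -0.60. Among genes named above, the response of MS4A3 was -0.29 in P2 and -0.20 in U937T, that of KIT 0.29 and -0.49, that of GPI -0.02 and 0.11 and that of CST7 -0.25 and -0.14, none of them called. S100A8 rose by 3.58 and 3.34, ITGAM by 3.84 and 4.0, and FOS by 1.60 and 1.58. As means of both lines, CD52 rose by 1.07, CFP by 1.96, TYROBP by 2.27, CD36 by 2.69, NCF1 by 3.00, SERPINA1 by 1.43, CHI3L1 by 1.26 and CLEC12B by 1.23. By list, the control lines had 16 of 37 genes of monocyte and macrophage maturation called higher and none lower (median 0.30), and 12 of 37 interferon-stimulated genes higher and 1 lower (median 0.29). In the list of ribosome biogenesis 32 of 38 were called lower (median -0.56), of amino acid supply 11 of 32 (median -0.30) and of synthetases 7 of 17 (median -0.31), with none higher. Primary granule genes had 4 of 16 lower and 1 higher (median -0.19), and replication genes 1 of 32 lower and 2 higher (median -0.08). How much of a change between 24 and 48 h occurs in these lines was not measured.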

How the data were processed

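RNA of 20 cultures was hybridized to Affymetrix HG-U133 Plus 2.0 arrays. The authors deposited log2 intensities after Robust Multi-array Analysis (background correction, quantile normalization and median polish). The software version is not given in the sources used here. Array medians lay between 5.25 and 5.35, and the number of arrays limits the precision. Quantile normalization gives all arrays 1 distribution, so a shift common to most genes would not be seen. Of 54675 probe sets, 41097 had 1 gene symbol in the platform annotation, 1801 several and 11777 none. Probe sets were kept when their mean log2 level reached 3 for each EVI1 clone at both 24 and 48 h and for each control line at 48 h, over cultures with and without tet (46203 passed, 35610 with 1 symbol). Each of 17860 genes was represented by its probe set with the highest mean.

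limma 3.58.1 in R 4.3.3 was fitted to all 20 arrays with 10 groups and the line as a block (8 residual degrees of freedom), with Benjamini-Hochberg adjustment over all genes. The block rests on the same clone being sampled in each condition. Correlations of the deviations over 6 pairs of groups had a median of 0.10 (-0.05 to 0.40). Genes were named by a rule: the 10 largest called changes in each direction, the 10 largest reversed, the 6 strongest stalled in each direction, MECOM, MS4A3 and CD52, and up to 4 members of each gene list with the largest changes. Members and lists were chosen with earlier results of these data known. Promoter sequences came from RefSeq (GRCh38.p14) and were matched by symbol for 14003 genes. The script was tested on simulated data. Alternatives changed the filter, probe set, scaling, variance model, block, arrays, fold minimum and stall limit. Probe sets with several symbols or none (10593 of those passing) were not named. Of these, 41 had a higher and 23 a lower change in a fit over all 46203 probe sets.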

Additional observations from a re-analysis of the deposited data

Results flagged for a closer look

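The response differed between 24 and 48 h, by a test of that difference itself, in 369 genes with a higher and 291 with a lower response at 48 h. The 17 genes with called responses of opposite sign at these times were, with their change, NR1D2 (1.41), ADRB1 (1.2), DDX60L (1.07), CLEC12A (1.03), PROK2 (0.95), RHBDF2 (0.78), LGALS12 (0.77), FYCO1 (0.73), MIDEAS-AS1 (0.72), CDC42EP3 (0.67) and RNF145 (0.56), which were lower without tet at 24 h and higher at 48 h. GPNMB (-1.2), SMCO4 (-1.03), KITLG (-0.91), GUCY1B2 (-0.88), SMIM2 (-0.86) and H2AC8 (-0.74) went from higher to lower.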

How the results depend on the processing

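All 660 called changes kept their sign in the alternatives that tested them, except that 646 of 660 did with the probe set of largest spread. In the fits of 1 EVI1 clone this was nearly fixed by the calls, which favour genes on which the clones agree. No named gene that was called changed sign. The calls themselves moved. With E10 or E14 left out (1 residual degree of freedom, from the control lines, 967 and 969 genes with an unadjusted p under 0.05) or P2 or U937T left out, higher changes ranged from 9 to 415, lower ones from 1 to 300, growing responses from 6 to 379, appearing from 3 to 277, declining from 0 to 44, reversed from 0 to 14 and stalled from 0 to 78. The low ends all come from leaving out an EVI1 clone. Without the E14 arrays at 12 and 24 h there were 56 higher and 42 lower changes, with 42 growing, 49 appearing, 2 declining, 5 reversed and 31 stalled responses, of which 42, 16, 1, 0 and 25 were in the same class with all arrays. With the probe set of largest spread these were 223 and 134, with 208, 129, 13 and 7 in the first 4 classes. At a minimum of 2-fold they were 101 and 55, with 101, 44, 5 and 6. An intensity trend with robust estimation gave 371 appearing responses, and a covariate for the 3′ minus 5′ signal 28 reversed ones. A stall limit of 2-fold gave 192. Centring arrays on their medians gave 398 higher and 206 lower changes. With no replicate block, that is without the line as a block, there were 276 higher and 227 lower changes and 26 declining responses, and 8 of 73 called named genes were lost (CTSD, CTSZ, GINS4, HSPE1, MCM4, MXD1, POLE2 and ZMAT3). The cause of these shifts was not tested. The median 95% interval of a change spanned 0.38 to either side on the log2 scale.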
